A study of Mus musculus with 8 samples.

Results

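The axon guidance ligands and receptors are the cell-surface and secreted proteins that attract or repel growing axons: semaphorins and their plexin receptors, ephrins and their Eph receptors, Slits and their Robo receptors, and netrins and the Unc5 receptors. They were chosen by gene name on the array, which gave 70 genes on 100 probes: 20 semaphorins, 9 plexins, 8 ephrins, 14 Eph receptors, 3 Slits, 4 Robos, 6 netrins, 4 Unc5 genes, and 2 genes, Unc50 and Unc5cl, that share only the letters of the name and are not guidance receptors. Of the 70, 66 were tested, those with a probe that 4 or more arrays read well above background, among 23608 genes and unnamed probes tested in all. Epha1, Ntn4 and Unc5cl were not well above background on any array, and Unc5d was so on 1 anti-CD4 array.

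RNA came from the hippocampus of female C57BL6/J mice, 8 weeks of age, after 4 weeks in an enriched environment, that is, housing with more space and objects than a standard cage. One group had received an anti-CD4 antibody (n = 4), which binds the surface protein of helper T lymphocytes, and the other a control antibody (n = 4); strain, sex, age and housing were shared by both. No label says that the samples of a group came from separate animals, so a p-value here speaks of the spread among these samples, part of which may be technical. The sources used here give neither the antibody clone nor its dose.

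Guidance genes are best known from the embryo, where a growth cone reads gradients of these ligands, but many stay on in the adult brain. In the adult hippocampus semaphorins, ephrins and Eph receptors act on dendritic spines, on the mossy fibres that dentate granule neurons send to CA3, and on the layering of inputs. Several of the same proteins also act in blood vessels: ephrin-B2 marks arterial and EphB4 venous endothelium, and plexin-D1 and Robo4 are receptors of endothelial cells. In bulk tissue a lower signal from fewer cells of a type and from less RNA per cell cannot be told apart.

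Every value below is a level on the log2 scale, the probe's processed signal minus the 75th percentile of its array, and every difference is anti-CD4 minus control. Levels of different probes cannot be set against each other. On each array 51.1% to 54.3% of probes stood well above background, none was saturated, and arrays correlated at 0.988 to 0.996 within groups and 0.986 to 0.994 between groups. All arrays shared 1 slide and 1 scan, with the anti-CD4 arrays in its first row and the control arrays in its second; the row and the antibody cannot be told apart. Hippocampal markers were detected, 14 of 14 for dentate granule neurons, 8 of 9 for CA1 and 9 of 11 for CA2 and CA3 passing the filter, and so were those of neighbouring tissue, 13 of 13 for choroid plexus, 8 of 10 for striatum, 8 of 10 for hypothalamus and amygdala and 9 of 11 for thalamus and habenula. These counts do not tell the tissues apart. The number of arrays limits the precision.

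Each probe is a 60-base oligonucleotide, and a gene's value is only as good as the stretch of transcript its probe binds. The stretches below are 30 bases of the probe sequences in the deposited files, 5′ to 3′, for the 6 genes on which the counts turn, with their places on mm9. No base is in capitals in this set, because the longest run shared with a probe of another gene was 12 to 15 bases.
Robo4 (chr9:37221547-37221606, plus strand): tattctcattctaccgccactctgagctta
Ephb4 (chr5:137815646-137815705, plus strand): gtcaacagaggcagacaacggtgcttggaa
Ephb4, second probe (chr5:137813703-137813762, plus strand): atacgaggaaagttttgcagcggctggatt
Efnb2 (chr8:8618177-8618236, minus strand): gtcatcggttggctacgttttggttctatg
Plxnd1 (chr6:115904829-115904888, minus strand): aggggaaggctgggactctctggaacattc
Plxnd1, second probe (chr6:115905315-115905374, minus strand): agggaatttctgcttcagccaccaagcagt
Plxnb3 (chrX:71017572-71017631, plus strand): aaagtgactgacctgtgaactagggccaca
Robo3 (chr9:37224357-37224416, minus strand): tctaccgctggtagcaattcttctaggggt
Robo3, second probe (chr9:37224780-37224839, minus strand): gattcatgcatctggtcaacattgaaattg
The Robo4 probe and the nearer Robo3 probe lie 2750 bases apart on opposite strands, so these neighbouring genes were read by probes that point towards each other.

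No guidance gene passed the adjusted threshold of 0.05 in limma, whose Benjamini-Hochberg adjustment ran over all 23608 rows, and neither did any other row (0.0% of all). The smallest adjusted p among the guidance genes was 0.247, for Robo4, and the count stayed at 0 when limma's variance prior was made robust with a trend. Taken without adjustment, 6 of 66 had a p under 0.05: Robo4, Ephb4, Efnb2 and Plxnd1 read higher with anti-CD4, and Plxnb3 and Robo3 read lower. That is 9.09%, against 13.0% of all rows tested, so the share was below the background. By direction the background was 6.17% higher and 6.83% lower, a split that became 8.75% higher and 4.06% lower when arrays were centred on their median, where the guidance genes stood at 5 higher and 2 lower.

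The differences were close in size to those of the array as a whole. The median difference of the 66 genes was 0.02, against 0.0068 for all rows, and it was -0.00048 in the authors' deposited log2 values. The median size of a difference, sign ignored, was 0.109 among guidance genes and 0.105 over all rows. The mean was higher with anti-CD4 for 35 of the 66 genes, against 51.8% of all rows. For 49 genes (74.2%) the 95% interval of the difference lay between -0.5 and 0.5, against 73.6% of all rows. The groups did not overlap for 4 genes (6.06%), Robo4, Ephb4 and Efnb3 higher and Epha3 lower with anti-CD4, against 8.18% of all rows (3.82% higher and 4.36% lower).

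**Figure D1:**
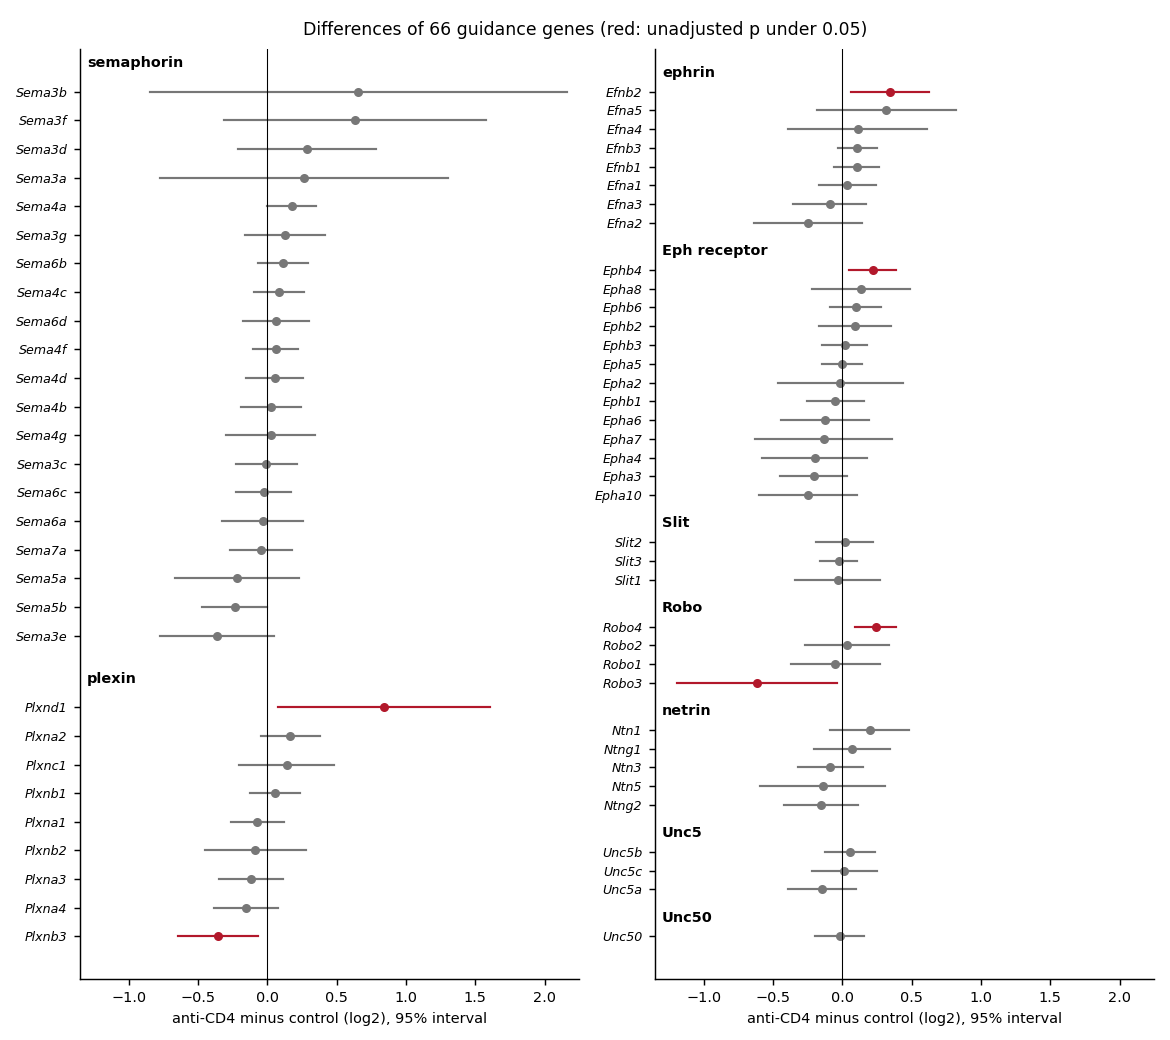
The difference between anti-CD4 and control arrays (log2, anti-CD4 minus control) of the 66 tested guidance genes, grouped by family, with 95% intervals as bars. Most intervals cross 0, the 6 genes at an unadjusted p under 0.05 are marked, and the widest interval is that of Sema3b.

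Among the receptors with a known vascular role, Robo4 had the smallest unadjusted p of the guidance genes. Robo4 had levels of 0.68, 0.74, 0.81 and 0.69 on the anti-CD4 arrays, against 0.40, 0.53, 0.45 and 0.58 on the control arrays. All anti-CD4 arrays lay above all control arrays, with means of 0.73 ± 0.06 and 0.49 ± 0.08 (SD, n = 4 each). The difference was 0.24 ± 0.066 (SE), or 1.18-fold, with a 95% interval of 0.09 to 0.39 and limma's unadjusted p of 0.0059 and adjusted p of 0.247. Leaving out any 1 array gave 0.21 to 0.27.

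Ephb4, the receptor of ephrin-B2 on venous endothelium, had levels of -1.85, -1.98, -1.91 and -1.91 with anti-CD4, against -2.15, -2.07, -2.29 and -2.03 in controls. The groups did not overlap, and the difference was 0.22 ± 0.074 (limma, unadjusted p = 0.017, adjusted p = 0.291). Its second probe read the same direction, with -3.78, -3.53, -3.74 and -3.63 on the anti-CD4 arrays, against -3.90, -4.02, -4.51 and -4.21 on the control arrays. Its difference was 0.49 ± 0.131 (limma fitted on single probes, adjusted p = 0.245). That probe was well above background on 4 anti-CD4 arrays and 2 control arrays, so it passed the filter through the group where it is high and adds no support. The size moved with the processing: the first probe differed by 0.15 after normexp correction and by 0.07 in the authors' deposited values, where its unadjusted p was not under 0.05.

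Efnb2, the ligand ephrin-B2, had levels of 1.32, 1.52, 1.22 and 1.40 with anti-CD4, against 1.04, 0.74, 0.98 and 1.31 in controls. Control replicate 4 lay inside the range of the anti-CD4 arrays, and the other control arrays lay below it. The difference was 0.34 ± 0.122 (limma, unadjusted p = 0.021, adjusted p = 0.307), and 0.20 when the mean of the dentate granule markers entered the fit. Its other probe did not stand well above background on a single array.

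Plxnd1, the receptor plexin-D1 of class 3 semaphorins, showed the widest gap between group means of any guidance gene, and it was uneven. It had levels of 3.36, 3.93, 2.22 and 3.60 with anti-CD4, against 2.74, 2.12, 2.37 and 2.52 in controls. Anti-CD4 replicates 1, 2 and 4 lay above every control array, and anti-CD4 replicate 3 lay among the controls. The difference was 0.84 ± 0.334, or 1.79-fold, with a 95% interval of 0.08 to 1.60 (limma, unadjusted p = 0.034, adjusted p = 0.347). Without anti-CD4 replicate 3 it was 1.19 with an adjusted p of 0.0915, the smallest adjusted p of a guidance gene under any setting run. With the dentate marker mean in the fit it was 0.40. The second probe followed the same arrays, with -0.57, 0.22, -1.39 and -0.14 with anti-CD4, against -0.66, -1.64, -1.19 and -0.95 in controls.

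On the lower side, Plxnb3, a plexin of oligodendrocytes, had levels of 1.08, 0.98, 1.32 and 0.92 with anti-CD4, against 1.59, 1.63, 1.32 and 1.19 in controls. Anti-CD4 replicate 3 and control replicate 3 stood at the same level, and anti-CD4 replicate 3 was the array through which the groups overlapped. The difference was -0.36 ± 0.126 (limma, unadjusted p = 0.021, adjusted p = 0.305).

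Robo3, a divergent Robo that in the mouse embryo lets commissural axons reach the midline, had levels of 0.82, -0.09, 0.66 and -0.12 with anti-CD4, against 1.04, 1.26, 0.94 and 0.49 in controls. Anti-CD4 replicates 2 and 4 were low, while replicates 1 and 3 lay within the range of the controls. The difference was -0.62 ± 0.254, or 1.53-fold lower, with a 95% interval of -1.20 to -0.04 (limma, unadjusted p = 0.040, adjusted p = 0.358). It was -0.26 with the dentate marker mean in the fit. The second Robo3 probe read -2.66, -4.83, -2.76 and -4.0 with anti-CD4, against -2.62, -2.54, -2.97 and -3.27 in controls, with the same 2 anti-CD4 arrays low. It was well above background on 2 anti-CD4 arrays and 4 control arrays, so it passed the filter through the group where it is high and adds no support.

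**Figure D2:**
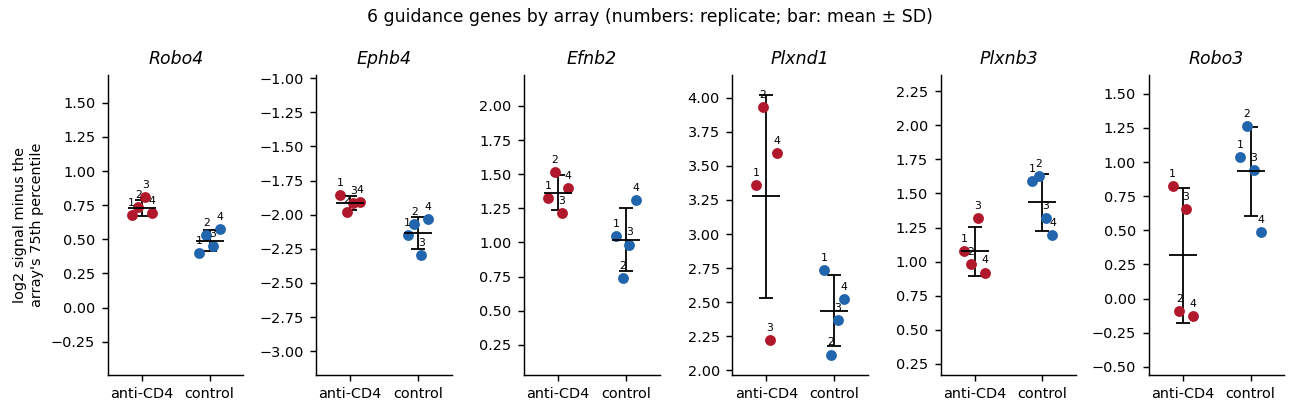
Levels (log2 signal minus the array's 75th percentile) of the 6 guidance genes at an unadjusted p under 0.05, 1 point per array, with group means and SD bars. For Robo4 and Ephb4 the groups do not overlap, while Plxnd1 and Robo3 have arrays of the anti-CD4 group among the controls.

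Semaphorins are secreted or membrane ligands, mostly repellent, and plexins are their signalling receptors. In the processing reported, none of the 20 semaphorins reached an unadjusted p under 0.05. After normexp correction Sema3d, Sema4a and Sema5b did, and Sema3d had limma's smallest adjusted p of a guidance gene, 0.206. Sema3d and Sema4a did so in the authors' deposited values, and Sema4a with quantile normalization and median centring. Those settings held 12.8% to 16.4% of all rows. Sema3e and Sema3g reached it under other settings. Of the 20, 13 had a higher mean with anti-CD4 and 7 a lower one, with differences from -0.36 to 0.66 and a median of 0.06. The split was 15 and 5 with median centring and 11 and 9 in the authors' deposited values. Both ends of that range belong to the secreted class 3, of which 5 of 7 were higher. Sema3f, which binds neuropilin-2 and acts on mossy fibres and spines, had levels of 0.32, 0.93, 0.86 and 0.88 with anti-CD4, against 0.75, -1.21, 0.11 and 0.81 in controls. The groups overlapped, and the difference of 0.63 ± 0.415 (limma, unadjusted p = 0.163) was 0.19 without control replicate 2. Sema3e, a ligand of plexin-D1, had levels of 0.64, 0.17, 0.71 and 0.28 with anti-CD4, against 0.45, 1.18, 0.94 and 0.68 in controls. Its difference was -0.36 ± 0.180 (limma, unadjusted p = 0.077), opposite in sign to that of Plxnd1, and -0.24 without control replicate 2.

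Sema3b and Sema3a, picked out after their values were seen, varied more within groups than any other guidance genes, with within-group SDs of 1.11 and 0.76 against a median of 0.166 over the 66 genes and 0.144 over all rows. Sema3b had levels of -0.61, 0.49, 1.88 and 0.72 with anti-CD4, against 0.87, -0.66, -1.40 and 1.03 in controls. The 95% interval of its difference of 0.66 ran from -0.85 to 2.16, so these arrays cannot place it on either side of 0. Sema3a, the repellent that acts through neuropilin-1, had levels of -0.84, 0.08, -2.11 and -0.37 with anti-CD4, against -1.16, -0.99, -0.43 and -1.69 in controls. The anti-CD4 arrays held both its highest and its lowest level. With 1 array left out the difference ran from 0.20 to 1.07 for Sema3b, lowest without control replicate 3, and from -0.03 to 0.70 for Sema3a, lowest without anti-CD4 replicate 2.

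The membrane-bound semaphorins differed by at most 0.23 in size. All 6 class 4 genes had a higher mean with anti-CD4, by 0.02 to 0.18, which was 5 of 6 after normexp correction and 4 of 6 in the authors' deposited values. Sema4a, a semaphorin also known from immune cells, had levels of 2.92, 3.09, 2.85 and 3.08 with anti-CD4, against 2.71, 2.83, 2.87 and 2.84 in controls (difference 0.18 ± 0.078, limma, unadjusted p = 0.052). Sema4c had levels of 4.01, 4.10, 3.91 and 4.06 with anti-CD4, against 3.87, 3.81, 3.99 and 4.06 in controls (difference 0.09 ± 0.079, limma, unadjusted p = 0.300). Both class 5 genes had a lower mean: Sema5b had levels of -0.29, -0.22, -0.34 and -0.07 with anti-CD4, against 0.09, 0.19, -0.07 and -0.20 in controls. Its difference was -0.23 ± 0.103 (limma, unadjusted p = 0.050), and -0.11 and -0.04 on its other probes. That of Sema5a was -0.22 ± 0.195 (limma, unadjusted p = 0.293), and -0.06 without control replicate 2. The transmembrane class 6, which includes ligands of plexin-A2 and plexin-A4, had differences of -0.03 to 0.11 on the probes used. The other probe of Sema6d differed by -0.22. The differences of Sema4d and Sema7a were 0.05 and -0.05.

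Among the plexins, 4 of 9 had a higher and 5 a lower mean with anti-CD4. Plxna2, a receptor of class 6 semaphorins on mossy fibres and their targets, had levels of 3.48, 3.39, 3.37 and 3.30 with anti-CD4, against 2.97, 3.25, 3.32 and 3.33 in controls (difference 0.17 ± 0.093, limma, unadjusted p = 0.108), and the difference was 0.08 without control replicate 1. Plxna4, which works beside it, had levels of 3.85, 3.48, 3.75 and 3.68 with anti-CD4, against 3.70, 3.98, 3.92 and 3.77 in controls, with a difference of -0.15 ± 0.10 (limma, unadjusted p = 0.163), which was -0.08 without anti-CD4 replicate 2 and -0.37 on its other probe. Both genes overlapped between groups. Plxna1 and Plxna3 differed by -0.07 and -0.12, Plxnb1 and Plxnb2 by 0.06 and -0.09, and Plxnc1, the receptor of Sema7a, by 0.14. The co-receptors of class 3 semaphorins, which are not part of the families counted, differed by -0.27 ± 0.141 for Nrp1 (limma, unadjusted p = 0.085) and by 0.07 for Nrp2 (limma, unadjusted p = 0.50).

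Ephrins are membrane-bound ligands that signal in both directions through Eph receptors on the facing cell: the A ligands are held by a lipid anchor, the B ligands span the membrane. All 3 ephrin-B genes had a higher mean with anti-CD4 under every scaling tried. Efnb3, an ephrin of hippocampal neurons, had levels of 4.57, 4.46, 4.47 and 4.44 with anti-CD4, against 4.31, 4.34, 4.43 and 4.42 in controls. The groups did not overlap, by a margin smaller than the spread within either, and the difference was 0.11 ± 0.061 (limma, unadjusted p = 0.111), or 0.06 after normexp correction and 0.04 in the authors' deposited values. Efnb1 differed by 0.10 (limma, unadjusted p = 0.192).

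The ephrin-A genes split 3 higher and 2 lower, a split that turned to 2 and 3 after normexp correction and in the authors' deposited values. Efna5, a repellent ligand of EphA receptors, had levels of 0.47, 0.78, 0.01 and 0.81 with anti-CD4, against 0.58, -0.26, 0.16 and 0.31 in controls (difference 0.32 ± 0.220, limma, unadjusted p = 0.186), and differed by 0.17 without control replicate 2 and by 0.49 with anti-CD4 replicate 3 left out. Efna2 had levels of -1.67, -1.66, -1.59 and -1.49 with anti-CD4, against -1.56, -1.53, -1.53 and -0.79 in controls. Its difference of -0.25 ± 0.170 (limma, unadjusted p = 0.184) was -0.06 without control replicate 4.

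Of the Eph receptors, 7 of 8 EphA genes had a lower mean with anti-CD4, which was 6 of 8 with quantile normalization and 5 of 8 with median centring. Epha3 had levels of -1.48, -1.43, -1.39 and -1.44 with anti-CD4, against -1.37, -0.91, -1.31 and -1.33 in controls. The groups did not overlap, yet the size came largely from control replicate 2: the difference was -0.21 ± 0.105 (limma, unadjusted p = 0.084), and -0.10 without that array. Epha10, a receptor without kinase activity, had levels of -2.0, -1.82, -2.12 and -2.40 with anti-CD4, against -1.58, -1.92, -1.71 and -2.14 in controls (difference -0.25 ± 0.154, limma, unadjusted p = 0.144). That value was -0.12 after normexp correction, -0.09 in the authors' deposited values, -0.14 without anti-CD4 replicate 4 and -0.16 without control replicate 1. Epha4, which restrains spines when bound by astrocytic ephrin-A3, had levels of 3.07, 2.65, 3.1 and 2.73 with anti-CD4, against 2.85, 3.52, 3.04 and 2.95 in controls, and differed by -0.20 ± 0.165 (limma, unadjusted p = 0.262), or by -0.06 without control replicate 2 and -0.12 if anti-CD4 replicate 2 was left out. Of the EphB receptors 4 of 5 had a higher mean, which was 3 of 5 with quantile normalization and in the authors' deposited values. Ephb6, the other Eph receptor without kinase activity, had levels of 3.91, 3.87, 3.76 and 3.92 with anti-CD4, against 3.63, 3.75, 3.94 and 3.74 in controls (difference 0.10 ± 0.081, limma, unadjusted p = 0.261).

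Slits are secreted repellents read by Robo1 and Robo2, and all 3 had 95% intervals inside -0.5 to 0.5. Slit1 had levels of 4.6, 4.30, 4.66 and 4.33 with anti-CD4, against 4.19, 4.70, 4.65 and 4.50 in controls. Slit3 had levels of 0.49, 0.41, 0.48 and 0.42 with anti-CD4, against 0.48, 0.55, 0.46 and 0.41 in controls. The differences and their 95% intervals were -0.04 (-0.34 to 0.27) for Slit1, 0.02 (-0.19 to 0.22) for Slit2 and -0.03 (-0.16 to 0.11) for Slit3, so for Slit3 a change beyond 0.16 in either direction lay outside the interval. Robo1 had levels of 1.74, 1.67, 1.60 and 1.70 with anti-CD4, against 1.39, 2.13, 1.71 and 1.69 in controls. Its difference was -0.05 ± 0.140 and that of Robo2 0.03 ± 0.133 (limma, unadjusted p = 0.729 and 0.799).

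Netrin-1 is a secreted cue that attracts axons through Dcc and repels them through Unc5 receptors, and the netrin-G proteins are membrane-anchored relatives that organise synapses. Ntn1 had levels of -2.40, -1.91, -2.41 and -2.20 with anti-CD4, against -2.26, -2.60, -2.41 and -2.44 in controls (difference 0.20 ± 0.125, limma, unadjusted p = 0.149), and differed by 0.09 without anti-CD4 replicate 2. Dcc, which is not in the families counted, had levels of 6.08, 5.90, 5.78 and 5.89 with anti-CD4, against 6.09, 6.23, 6.09 and 5.95 in controls, with a difference of -0.17 ± 0.088 (limma, unadjusted p = 0.081). Unc5a had levels of 5.05, 4.76, 4.90 and 4.86 with anti-CD4, against 4.95, 5.33, 4.94 and 4.94 in controls. Its difference of -0.15 ± 0.108 (limma, unadjusted p = 0.209) was -0.05 without control replicate 2.

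Unc5b and Unc5c differed by 0.05 and 0.02. Ntng1 had levels of 3.22, 3.29, 2.78 and 3.1 with anti-CD4, against 3.17, 2.87, 3.09 and 2.99 in controls, and differed by 0.07 (limma, unadjusted p = 0.574). Its postsynaptic partner Lrrc4c differed by 0.12 (limma, unadjusted p = 0.329). Ntng2 had a low signal, with -3.74, -4.05, -3.82 and -3.83 with anti-CD4, against -3.80, -3.89, -3.73 and -3.41 in controls. Its difference of -0.15 changed sign to 0.11 after normexp correction and to 0.07 in the authors' deposited values. Leaving out control replicate 4 gave -0.05, and leaving out anti-CD4 replicate 2 gave -0.09. Netrins as a family stood at 2 higher and 3 lower, and at 3 higher and 2 lower under those last 2 settings.

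Of the 66 genes, 48 rested on 1 tested probe and 18 on several, which gave an internal check of the measurement. In 12 of the 18 all tested probes had the same sign, and in 6 they did not. The 12 include Ephb4 and Robo3, whose second probes passed the filter through the group where they are high. For these genes the shared sign adds no support. The median gap between a gene's probes was 0.147 and the largest 0.332. The discordant genes were Ntng1 (0.07, 0.05 and -0.26), Robo2 (0.03, 0.03 and -0.08), Sema6d (0.06 and -0.22), Sema6c (-0.02 and 0.03), Plxna2 (0.17 and -0.08) and Sema3c (-0.0076 and 0.07), with the value of the probe used first. Of these, Plxna2 and Sema6d have a probe with a repeated stretch, shown here because it is not unique to the gene; capitals mark a run of 22 bases shared with a probe of another gene.
Plxna2, used (chr1:196642958-196643017, plus strand): catgtacctattgtaaatatgaaactccta
Plxna2, second probe, bases 31 to 60 (chr14:108739666-108739725, plus strand): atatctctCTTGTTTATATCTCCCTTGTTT
Sema6d, used, bases 31 to 60 (chr2:124491609-124491668, plus strand): agaggggcGAGTGTGTGTGTGTGTGTGTGT
Sema6d, second probe (chr2:124490948-124491007, plus strand): taaagaggacaccatccttaaaacctgatg
The second Plxna2 probe is placed by the files on chromosome 14, while the gene lies on chromosome 1, the only such case among the 100 probes. The Sema6d probe used here ends in a GT repeat. The second Sema6d probe, with no such repeat, had -3.33, -3.2, -3.1 and -3.23 with anti-CD4, against -2.93, -2.89, -3.01 and -3.15 in controls, and its unadjusted p in limma was 0.024 (adjusted p = 0.320).

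**Figure D3:**
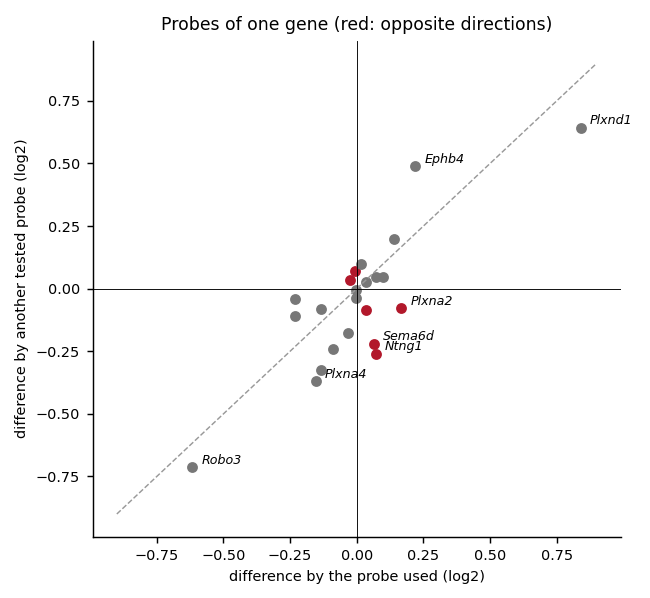
Difference (log2, anti-CD4 minus control) by the probe used, against that by another tested probe, for the 18 guidance genes with several tested probes. Probes of Plxnd1, Robo3 and Ephb4 share a sign, and 6 genes have a probe of opposite sign, in red. The second probes of Robo3 and Ephb4 passed the filter through the group where they are high.

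The genes that act with these ligands and receptors were listed from textbook pathways, 94 names in all, of which 90 were tested. The untested names Rgmc and Hfe2 belong to the same gene. None passed the adjusted threshold in limma, and 20 (22.2%) reached an unadjusted p under 0.05, 9 higher and 11 lower with anti-CD4, beside the 13.0% of all rows. The 25 other receptors and co-receptors held 3 higher and 4 lower, and the 54 cytoplasmic effectors 4 higher and 7 lower. The other ligands, 11 tested of 15 names, held 2 higher and none lower. The median difference of the 90 genes was 0.02. The groups did not overlap for 3 higher and 8 lower (12.2%), beside 8.18% of all rows.

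Cntn2, an axonal adhesion molecule, had levels of -2.75, -3.01, -3.14 and -3.03 with anti-CD4, against -2.65, -2.49, -2.59 and -2.45 in controls. Its groups did not overlap, and its difference was -0.44 ± 0.094 (limma, adjusted p = 0.204), but -0.13 after normexp correction and -0.10 in the authors' deposited values. With the mean of its tested probes the difference was -0.30. Pak2, a kinase downstream of Rac, had levels of 1.62, 1.52, 1.63 and 1.68 with anti-CD4, against 1.93, 1.95, 1.83 and 1.87 in controls, again without overlap (difference -0.28 ± 0.063, limma, adjusted p = 0.219). Farp2, an exchange factor in the Sema3a pathway, differed by -0.29 ± 0.079 and its groups did not overlap (limma, adjusted p = 0.247); it differed by -0.17 after normexp correction and by -0.15 in the authors' deposited values.

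On the higher side, Ngef, the exchange factor ephexin, which acts downstream of EphA receptors, had levels of 5.60, 5.73, 5.30 and 5.64 with anti-CD4, against 5.05, 5.15, 5.33 and 5.15 in controls (difference 0.40 ± 0.105, limma, adjusted p = 0.247). Anti-CD4 replicate 3 was the array that overlapped the controls. Bmp7, a secreted factor that repels commissural axons, had levels of 0.78, 0.82, 0.68 and 0.87 with anti-CD4, against 0.63, 0.20, -0.17 and 0.25 in controls, without overlap (difference 0.56 ± 0.151, limma, adjusted p = 0.247). Cdk5r1, the activator of Cdk5, differed by 0.25 ± 0.073 and its groups did not overlap (limma, adjusted p = 0.255). With the mean of its tested probes it differed by 0.18.

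Markers of cell types and neighbouring regions were read on the same arrays, because the guidance genes are not spread evenly over them. The 12 endothelial and pericyte markers had mean levels of 0.12, 0.06, 0.09 and 0.17 with anti-CD4, against 0.01, 0.07, -0.13 and 0.03 in controls (exact permutation p = 0.0571, adjusted p = 0.214 over 15 lists). The 8 endothelial markers all had a higher mean, and the 4 pericyte markers, Pdgfrb, Rgs5, Abcc9 and Kcnj8, had a lower one, by -0.14 to -0.02. Of the higher markers 5, among them Flt1 with a difference of 0.33, reached an unadjusted p under 0.05 in limma, beside 6.17% of all rows. The list mean shared the direction of Robo4, Ephb4, Efnb2 and Plxnd1 between groups. Within the anti-CD4 group the list mean was lowest on replicate 2, where Efnb2 and Plxnd1 were highest and Ephb4 was lowest. Robo4 was lowest on replicate 1. The part of the list in the values of these genes was not tested. The 10 oligodendrocyte markers, beside Plxnb3, had mean levels of 3.53, 3.25, 3.70 and 3.40 with anti-CD4, against 3.75, 3.70, 3.45 and 3.53 in controls, with 7 of 10 lower (exact permutation p = 0.314). Of these markers 4 (Mog, Ugt8a, Aspa and Sox10) were lower at an unadjusted p under 0.05 in limma, beside 6.83% of all rows. Mobp, Cnp and Mbp had a higher mean, by 0.18, 0.05 and 0.03. The part of this list in the Plxnb3 value was not tested.

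Lists for choroid plexus, striatum, and hypothalamus and amygdala varied more from array to array than the oligodendrocyte list. That for thalamus and habenula did not. The 13 choroid plexus markers had mean levels of -1.62, 1.90, 3.2 and 2.0 with anti-CD4, against 2.74, -1.43, -2.47 and 2.72 in controls (exact permutation p = 0.629). The 3 arrays with a choroid mean below 0, anti-CD4 replicate 1 and control replicates 2 and 3, were the 3 with Sema3b below 0 and the 3 lowest for Sema3f. With the log2 signal of Ttr, the defining choroid plexus gene, in the fit the Sema3b difference was 0.23 and the Sema3f difference 0.45.

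The 14 dentate granule markers had mean levels of 0.73, 0.19, 0.73 and 0.35 with anti-CD4, against 0.55, 1.02, 0.79 and 0.62 in controls (exact permutation p = 0.229). Anti-CD4 replicates 2 and 4, the lowest on this list, were the lowest for Robo3 and Sema3e. With that mean in the fit the Sema3e difference was -0.08 and the Sema3f difference 0.13. The 8 tested striatal markers of 10 had mean levels of 1.32, 1.64, 0.99 and 1.45 with anti-CD4, against 1.21, 0.55, 1.08 and 1.0 in controls (exact permutation p = 0.114). The 8 tested hypothalamic and amygdalar markers of 10 had 1.34, 1.78, 0.22 and 1.37 with anti-CD4, against -0.03, -0.45, 0.03 and -0.01 in controls. For this list the groups did not overlap (exact permutation p = 0.0286, the smallest the design allows, adjusted p = 0.143). The same p came from 2 other lists, thalamus and habenula, higher with anti-CD4, and CA1, lower. The marker lists were chosen with earlier results of these data known, so their p-values are no independent support. Of the 8 hypothalamic and amygdalar markers 5 stood well above background on every array, and Trh had the largest difference, 4.58. The 4 tested T lymphocyte markers of 10 ranged from 0.27 to 0.48 in mean level with anti-CD4, against 0.32 to 0.47 in controls. The 3 anti-CD4 arrays highest on the striatal list and on the hypothalamic and amygdalar list were the 3 highest for Plxnd1, and anti-CD4 replicate 3 was lowest of its group on those lists and for Plxnd1. These pairs of a gene and a list were set side by side after their values were seen, and the part of these tissues in the guidance gene values was not tested.

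**Figure D4:**
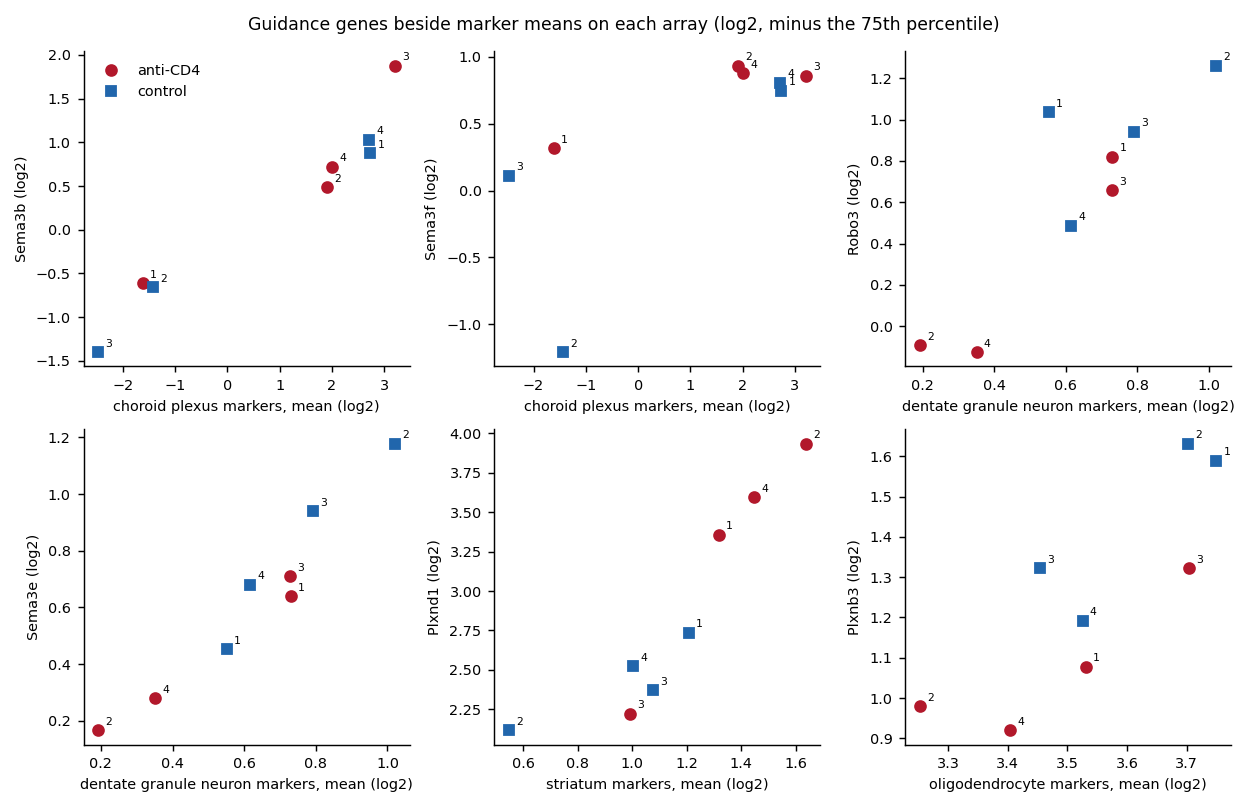
Mean levels (log2 signal minus the array's 75th percentile) of marker lists on each array, beside levels of guidance genes on the same arrays. Sema3b is below 0 on the 3 arrays where the choroid plexus list is below 0, and Robo3 is lowest on the 2 arrays where the dentate list is lowest.

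The share of guidance genes at an unadjusted p under 0.05 moved with the arrays in the fit. It was 3.03% without anti-CD4 replicate 2, beside 9.41% of all rows, and 15.2% without anti-CD4 replicate 3, beside 15.8% of all rows. Over the 19 alternatives run, Robo4 stayed at an unadjusted p under 0.05 in 19, Efnb2 in 17, Ephb4 in 16, Plxnb3 in 14, Robo3 in 10 and Plxnd1 in 9. Ephb4 lost it under the replicate block, with the robust and trended variance prior and in the authors' deposited values. With the dentate marker mean in the fit Efnb2, Plxnd1, Plxnb3 and Robo3 all lost it, and Plxna3 and Sema3g reached it.

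**Figure D5:**
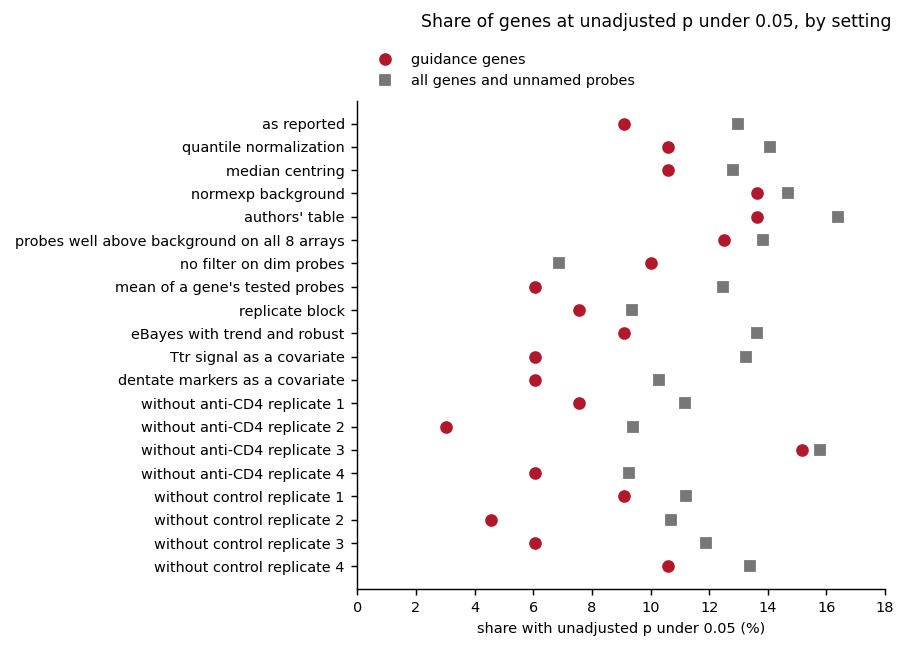
Percent of guidance genes and of all rows at an unadjusted p under 0.05 under each processing setting and with each array left out. The share of guidance genes is below that of all rows in the setting used (9.09% against 13.0%), and above it in 1 setting, that with no filter on dim probes.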

How the data were processed

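The scanner files hold spot intensity values from Feature Extraction 10.7.3.1, which per the file headers had subtracted and detrended the background of each array without normalizing between arrays. The authors also deposited a table of log2 values for the same probes, with column medians near 7.83; its columns ranked probes as their own arrays did, so its direction is known, and its normalization is not given in the sources used here. The submitters' processing notes name limma.

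Control spots were left out. Outlier-flagged spots were left out only where the probe had an unflagged spot, and the spots kept for a probe were averaged. Values are log2 processed signal minus the array's 75th percentile. Probes well above background on at least 4 of 8 arrays were kept (29406 of 55681), with the brightest per gene, leaving 23608 rows, 15890 with a symbol (GRCm38.p6 names). Groups follow the sample titles. The test was limma 3.58.1 (lmFit, then eBayes, in R 4.3.3), two-sided, adjusted by Benjamini-Hochberg over all rows, and checked on simulated data. The simulated rows varied independently, so that check does not cover variation shared by many rows of these arrays. Marker list means and single array measures were compared by exact two-sided permutation tests over 70 assignments. Single probes were also fitted on their own, a choice made after seeing the data.

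The genes, pathway lists and markers were chosen with earlier results of these data known. Named are up to 10 genes per direction with the smallest unadjusted p and the brightest gene of each family, with levels on every array, and genes with discordant probes, with each probe's difference, beside fixed ligand and receptor sets and 3 other pathway genes per direction. Same-numbered samples did not deviate together (correlations of -0.45, -0.29, -0.31 and 0.30), so the numbers were not used as pairs. Alternatives covered normalization, background correction, the authors' table, the filter, the probe of a gene, a replicate block, the variance prior, covariates for Ttr and dentate markers, each array left out and a threshold of 0.1.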

Additional observations from a re-analysis of the deposited data

Results flagged for a closer look

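In 7 of 86 groups of 4 arrays examined (8.14%, where chance gives about 1 in 20), 1 array lay far from the other 3. Some of these genes were named for a small p or a wide spread, and no share over all rows is given here. The 8.14% therefore cannot be read as an excess. Sema3f was at 0.318 on anti-CD4 replicate 1, with the other anti-CD4 arrays at 0.858 to 0.935. Sema3c was at 0.941 on anti-CD4 replicate 3, with the others at 1.06 to 1.08. Control replicate 2 stood apart for 3 genes: Epha3 at -0.905 with the other controls at -1.37 to -1.31, Unc5a at 5.33 with the others at 4.94 to 4.95, and Unc5b at 2.08 with the others at 2.01 to 2.02. Efna2 was at -0.787 on control replicate 4, with the others at -1.56 to -1.53. Cdk5r1, the activator of Cdk5, was at 5.20 on control replicate 1, with the others at 5.38 to 5.42.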

How the results depend on the processing

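No guidance gene passed an adjusted p of 0.05, or of 0.1 in the processing reported, and none passed 0.05 under any of 19 alternatives. The numbers at an unadjusted p under 0.05, 4 higher and 2 lower as reported, were 2 to 7 higher and 0 to 4 lower when 1 array was left out. The lower count was 1 with no filter on dim probes, with the mean of a gene's probes, with the Ttr covariate and with the dentate covariate, where neither Plxnb3 nor Robo3 was the gene counted. With no filter, Ntn4 and Unc5d joined the genes at an unadjusted p under 0.05. With the replicate number as a replicate block there were 3 higher and 2 lower, and the smallest adjusted p was 0.485; same-numbered samples did not pair. The median difference was 0.0043 to 0.023 when 1 array was left out. Of 833 values of 43 named genes, 783 kept their sign, 50 reversed, and 26 genes never reversed. Reversed values with the dentate covariate were Efna5 -0.0041, Epha4 0.054, Ntng1 -0.044, Robo1 0.073, Sema3a -0.079, Sema3c 0.023, Sema5a 0.088, Sema6c 0.079, Sema6d -0.011, Slit1 0.15, Slit3 0.015 and Unc5c -0.0046, and with the Ttr covariate Slit1 0.016. With median centring they were Sema3c 0.026, Sema6c 0.0088 and Slit3 0.0071. With the mean of a gene's probes they were Ntng1 -0.047, Robo2 -0.0075, Sema3c 0.031, Sema6c 0.0046 and Sema6d -0.078, and on another probe Ntng1 -0.26, Plxna2 -0.078, Robo2 -0.084, Sema3c 0.071, Sema6c 0.034 and Sema6d -0.22. Ntng2 was 0.11 after normexp correction and 0.067 in the authors' table, where Robo1 was 0.0063. With 1 array left out the range crossed 0 for Robo1 (-0.16 to 0.083), Robo2 (-0.045 to 0.14), Sema3a (-0.034 to 0.70), Sema3c (-0.072 to 0.075), Sema6c (-0.073 to 0.029), Slit1 (-0.14 to 0.028), Slit2 (-0.037 to 0.086), Unc5b (-0.0052 to 0.097) and Unc5c (-0.043 to 0.073). The cause was not tested. Dim probes such as that of Ntng2 are limited by their signal over background.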
